A study of Mus musculus with 6 samples.

Results

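The ATF4 and CHOP stress arm was followed in MIN6 cells through 10 genes, *Atf4*, *Ddit3*, *Trib3*, *Atf3*, *Atf5*, *Chac1*, *Asns*, *Ppp1r15a*, *Sesn2* and *Ddit4*. They were taken by gene symbol. All 10 were found among the 16640 genes counted in each library, and all 10 passed the filter on low counts that left 12516 genes for testing. MIN6 is a mouse insulinoma cell line used as a model of the pancreatic β-cell. Control cells received dCas9 and a non-targeting sgRNA, and the paper's methods do not state whether VP64 or MS2-P65-HSF1 came with them. *Thada*-activated cells carried dCas9-VP64 and an sgRNA to the *Thada* promoter with MS2-P65-HSF1, the remaining parts of the SAM system. Both were stable lines made by lentivirus with drug selection, are not stated to be clones, and carry no label of an ER stressor. Each condition had 3 libraries, numbered as replicates 1, 2 and 3, with between 17166511 and 17727004 counts per library. Cell culture work in the study is described in general as repeated independently 3 or more times, but the preparation of these libraries is not described replicate by replicate, so that the p-values measure the spread between these libraries only and part of it may be technical. In libraries of whole cultures, less RNA in every cell and fewer cells with the RNA cannot be told apart.

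ATF4 is a transcription factor whose protein is made when phosphorylation of eIF2α slows general translation, as occurs when unfolded proteins load the ER, when amino acids run short or in other stresses. It raises the transcription of genes for amino acid supply and of further regulators, among them *Ddit3*, which encodes CHOP, a transcription factor known for its part in the death of β-cells under lasting ER stress. Because β-cells fold large amounts of proinsulin, this arm has long been studied in them. ATF4 is controlled largely at translation, which RNA levels do not show.

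The cells bore the marks of β-cells. The 8 β-cell markers summed to between 93239 and 128590 CPM (counts relative to the size of the library after TMM scaling) per library, with *Ins2* the most abundant, although *Slc2a2*, the glucose transporter of mouse β-cells, was at 0.512 CPM or less in every library. Of 5 counted markers of other islet cells, *Sst* was the most abundant, and their sum was between 115 and 202 CPM. Stromal, endothelial and immune markers summed to at most 5.34 CPM, with *Col1a1* the most abundant and *Cdh5*, *Adgre1* and *Col3a1* at 0 in 1 or more libraries. Among acinar and duct markers only *Krt19* was counted, and it measured 0.527, 0.524 and 0.344 CPM in control and 2.36, 1.49 and 1.02 CPM in *Thada*-activated libraries. The conditions did not overlap for *Krt19*, whose log2 fold change was 1.79 (standard error 0.42, adjusted p = 1 in edgeR), and 1.87 without both replicate 3 libraries (adjusted p = 0.000578 in edgeR), where it was called, and it was 1.78 with the replicate block (adjusted p = 0.0549 in edgeR). Its part in the results was not tested. *Thada* itself measured 28.0, 28.9 and 17.2 CPM in replicates 1 to 3 of control cells, against 57.3, 56.2 and 49.1 CPM with *Thada* activated. The conditions did not overlap (p = 0.1 by an exact permutation test, which cannot go lower with 3 libraries on each side), so the labels matched the activated gene. Its log2 fold change by edgeR was 1.13 (standard error 0.22, adjusted p = 1), and with the replicate number as a block it was 1.15 (standard error 0.10, adjusted p = 0.00041 in edgeR).

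Replicate 3 stood apart from replicates 1 and 2 in both conditions over all genes. The first principal component of log2 CPM held 80.1% of the variance, with the 2 replicate 3 libraries at one end. In those libraries *Ins2* took 10.2% of the counts in control and 8.36% in *Thada*-activated cells, against 5.65% to 6.44% in the other 4 libraries. Of the 7 β-cell markers tested, 2 (*Ins1* and *Ins2*) were above the other 4 libraries in both replicate 3 libraries and 5 were below, with *Ucn3* at -1.36 in control and -1.14 in *Thada*-activated cells and *Pdx1* at -1.045 and -1.005 on the log2 scale. Between conditions 0 of these 7 were called, while 4 had an adjusted p under 0.05 in edgeR without the replicate 3 libraries. Of these, *Ucn3*, *Mafa* and *Nkx6-1* were higher and *Iapp* was lower with *Thada* activated. In the blocked edgeR fit with all 6 libraries *Ucn3* alone had an adjusted p under 0.05 (0.0337). It was at 0.52 on the log2 scale there, under 1.5-fold. Markers of other cells differed in replicate 3 as well. The islet sum was 115 and 120 CPM in its libraries, led by *Sst* (-1.04 and -1.24 on the log2 scale), against 169 to 202 CPM in the other 4. The list went both ways, since of 4 islet markers tested 2 (*Sst* and *Gcg*) were below the other 4 libraries. The other 2 were above them, *Ppy* by 0.57 and 0.82 and *Irx2* by 0.49 and 0.50. The stromal, endothelial and immune sum was 5.05 and 5.34 CPM, with *Col1a1* at 1.19 and 1.29 on the log2 scale and *Pecam1* at 3.60-fold and 2.71-fold, against 2.21 to 3.33 CPM in the other 4. Of the 2 genes of this list that were tested, *Col1a1* was above the other 4 libraries and *Cd68* was below them (-0.84 and -0.83). The part of these in the results was not tested. Values are therefore given by replicate number, and comparisons of replicate 3 with replicates 1 and 2 carry no test, since this division of the libraries was noticed in the data. What sets the replicate 3 libraries apart was not tested.

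*Atf4*, the regulator at the head of the arm, measured 366, 368 and 274 CPM in replicates 1 to 3 of control cells, against 338, 342 and 211 CPM with *Thada* activated. Replicate 3 was the lowest library of each condition, and within each replicate number the *Thada*-activated library was lower than the control library, although the conditions overlapped as a whole. *Atf4* was estimated by edgeR at -0.18 on the log2 scale (standard error 0.23, adjusted p = 1), within its standard error of 0.

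*Ddit3* had another pattern. It measured 32.5, 33.5 and 165 CPM in replicates 1 to 3 of control cells, against 26.8, 25.1 and 76.3 CPM with *Thada* activated. Both replicate 3 libraries were far above the other 4, and the conditions overlapped, since *Thada*-activated replicate 3 was above control replicates 1 and 2. The level in replicate 3 was 5.01-fold the mean of replicates 1 and 2 in control cells and 2.94-fold in *Thada*-activated cells, while replicates 1 and 2 differed by -0.04 in control and 0.10 in *Thada*-activated cells on the log2 scale (replicate 1 minus replicate 2). The mean of *Ddit3* over control libraries was 77.1 ± 76.5 CPM, and over *Thada*-activated libraries it was 42.7 ± 29.1 CPM (SD, n = 3 each), so that the spread among controls was larger than the difference. The log2 fold change between conditions by edgeR was -0.85 with a standard error of 0.80 (adjusted p = 1). Without control replicate 3 it was 0.37 and without *Thada*-activated replicate 3 it was -1.57, where the high level of replicate 3 counted in 1 condition only. With replicate 3 in both conditions or in neither, *Ddit3* was below 0, at -0.66 with the replicate number as a block, at -0.35 without both replicate 3 libraries, and at -0.81 and -0.75 in blocked fits without replicate 1 and replicate 2. Within the replicate numbers *Ddit3* was lower in the *Thada*-activated library each time, by log2 differences of -0.27, -0.42 and -1.12 for replicates 1, 2 and 3. The difference in replicate 3 was the 25th lowest of the 12516 genes tested.

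**Figure D1:**
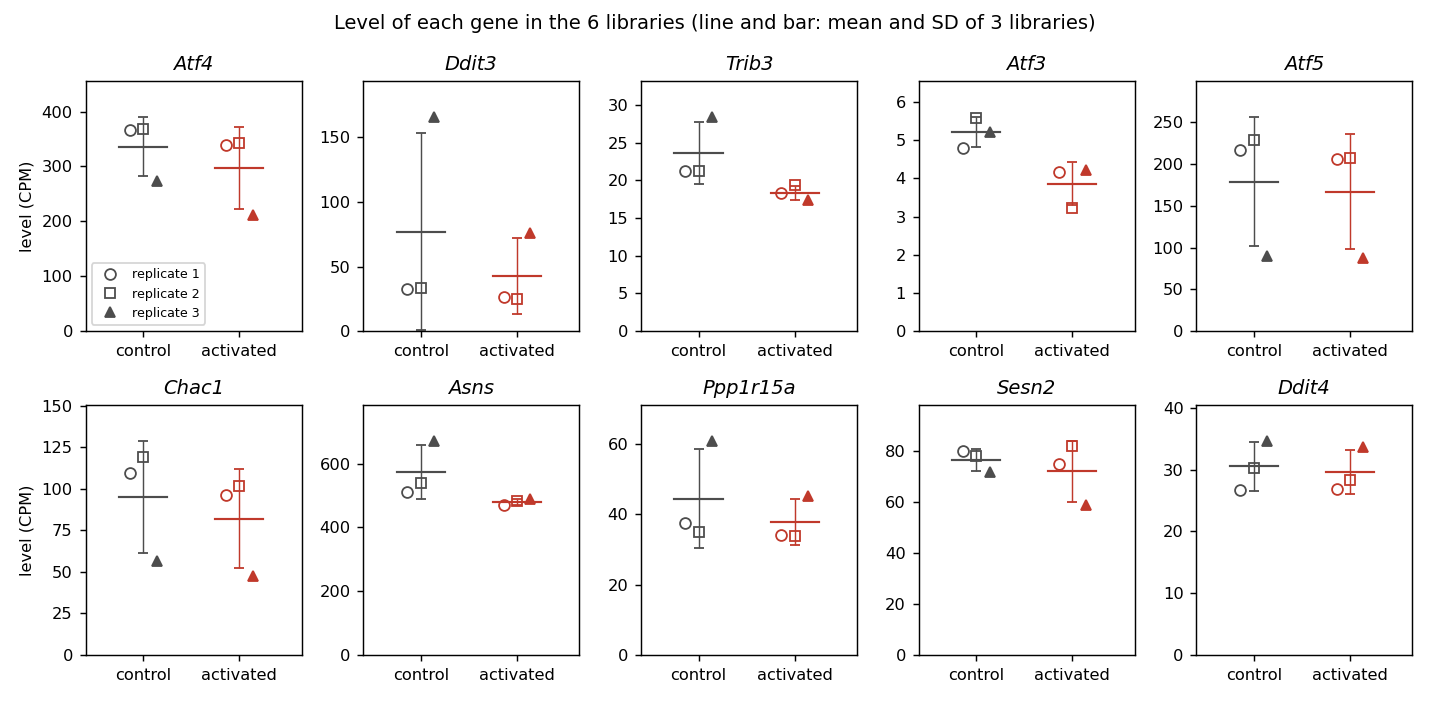
Level of the 10 genes in CPM in each library, with control cells in grey and *Thada*-activated cells in red, symbols for the replicate number, and lines and bars for the mean and SD of 3 libraries. In *Ddit3* the replicate 3 libraries (165 and 76.3 CPM) lie above the other 4, whereas in *Atf4*, *Atf5* and *Chac1* they lie below them.

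Of the other transcription factors of the arm, *Atf5*, a further ATF4 target that is itself controlled at translation, went the opposite way to *Ddit3* in replicate 3. It measured 217, 229 and 90.0 CPM in replicates 1 to 3 of control cells, against 206, 207 and 87.2 CPM with *Thada* activated. The replicate 3 libraries were thus at 0.403 and 0.422 of the mean of replicates 1 and 2, and the conditions overlapped. *Atf3*, a repressor and activator induced by many stresses, was the least abundant of the 10 and lay between 4.80 and 5.58 CPM in control and between 3.22 and 4.21 CPM in *Thada*-activated libraries. Its conditions did not overlap, and its log2 fold change by edgeR was -0.43 (standard error 0.20, adjusted p = 1), with counts of 56 to 96 per library behind it.

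*Trib3*, a pseudokinase that is induced by ATF4 and CHOP and restrains ATF4 in turn, measured 21.3, 21.2 and 28.3 CPM in replicates 1 to 3 of control cells, against 18.3, 19.3 and 17.3 CPM with *Thada* activated. Every control library was above every *Thada*-activated library, and replicate 3 was the highest of the control libraries but the lowest of the *Thada*-activated ones. The log2 fold change was -0.37 with a standard error of 0.15 (edgeR, unadjusted p = 0.0532, adjusted p = 1). Without control replicate 3 it was -0.21. *Trib3* did not share the higher level of *Ddit3* in *Thada*-activated replicate 3.

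*Asns*, which makes asparagine and is a standard readout of ATF4, measured 510.3, 540.0 and 670.4 CPM in replicates 1 to 3 of control cells, against 469, 483 and 488 CPM with *Thada* activated. Here too the conditions did not overlap, but the distance between the nearest libraries was small beside the spread of the control libraries (573.5 ± 85.2 CPM against 480.1 ± 9.87 CPM, SD, n = 3 each). The log2 fold change by edgeR was -0.26 (standard error 0.15, adjusted p = 1), and -0.13 without control replicate 3. *Chac1*, which degrades glutathione, measured 109, 119 and 56.7 CPM in replicates 1 to 3 of control cells, against 96.3, 102 and 47.6 CPM with *Thada* activated. Replicate 3 was at 0.497 and 0.481 of the mean of the other libraries of its condition, and the *Thada*-activated library was lower within each replicate number by similar log2 differences of -0.18, -0.23 and -0.25.

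The remaining members end the response or restrain growth. *Ppp1r15a*, which encodes the GADD34 subunit that directs a phosphatase to eIF2α and so ends the response, measured 37.5, 35.1 and 60.8 CPM in replicates 1 to 3 of control cells, against 34.0, 33.7 and 45.3 CPM with *Thada* activated. Like *Ddit3* it was highest in the replicate 3 libraries, at 1.67-fold and 1.34-fold the mean of replicates 1 and 2. *Sesn2* and *Ddit4*, which both restrain mTORC1, lay between 58.8 and 82.0 CPM and between 26.8 and 34.6 CPM. *Sesn2* was lowest and *Ddit4* highest in the replicate 3 libraries, and their log2 fold changes of -0.09 (standard error 0.15) and -0.04 (standard error 0.15) were within the standard error of 0.

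Between conditions, 0 of the 10 genes were called by edgeR, which required p under 0.05 after adjustment and a change of more than 1.5-fold, where 0% of all 12516 tested genes were called and 101 genes had an unadjusted p under 0.05. DESeq2 called 5 genes, none of the 10 among them. All 10 estimates were below 0, from -0.85 to -0.04 with a median of -0.23, where 51.3% of all tested genes were below 0 and their median was 0.00. Only *Trib3*, *Atf3* and *Asns* (3 of 10) had all *Thada*-activated libraries below all control libraries, against 2.7% of tested genes, and 0 had them above, also against 2.7%. For the other 7 genes the conditions overlapped. None of the 10 had an unadjusted p under 0.05 in this fit. With both replicate 3 libraries left out, and in each blocked fit (by replicate number), all 10 were again below 0. A fit without a block that leaves out a single replicate 3 library has replicate 3 in 1 condition only, so that its difference from the other replicates enters the estimate, and there 7 estimates were below 0 without control replicate 3 and 6 without *Thada*-activated replicate 3. *Ddit3* (0.37), *Ppp1r15a* (0.054) and *Ddit4* (0.056) were above 0 without the former, and *Atf4* (0.019), *Atf5* (0.21), *Chac1* (0.059) and *Sesn2* (0.036) without the latter. *Atf5* was also above 0 without control replicate 1 (0.065) or 2 (0.12), and *Ddit4* without *Thada*-activated replicate 1 (0.021).

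Within each replicate number, 8 of the 10 genes (7 without TMM, where *Atf5* was not lower in replicate 3) were lower in the *Thada*-activated library all 3 times, where 16.7% of tested genes were, and 0 were higher all 3 times, where 16.3% of tested genes were. The exceptions were *Sesn2*, higher by 0.08 in replicate 2, and *Ddit4*, higher by 0.01 in replicate 1. The median log2 difference of the 10 genes was -0.13 in replicate 1, -0.14 in replicate 2 and -0.34 in replicate 3, and over all tested genes these medians were 0.00 each time. The 10 genes share a regulator and libraries, so they are not 10 separate observations of the conditions. With the replicate number as a block in edgeR, 19 genes (0.152%) were called and 0 of the 10 genes were among them. In that fit 7 of the 10, all but *Atf5*, *Sesn2* and *Ddit4*, had an unadjusted p under 0.05, where 10.4% of tested genes had. Their adjusted p-values in the blocked edgeR fit ran from 0.238 for *Chac1* to 0.884 for *Ddit4*, and *Ddit3* was at -0.66 on the log2 scale (standard error 0.17, adjusted p = 0.282).

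Leaving out both replicate 3 libraries, a step chosen after the data were seen, compared the conditions in replicates 1 and 2 alone. The chi-square of counts per degree of freedom between these replicates was 1.81 in *Thada*-activated and 4.30 in control cells. Sampling of reads alone gives about 1. The p-values of these fits thus measure a small spread between those libraries only, much of which may be technical. The biological coefficient of variation in edgeR was 0.253 with all libraries and 0.0365 without replicate 3. *Ddit3* then stood at -0.35 on the log2 scale (standard error 0.08, edgeR's adjusted p = 0.00479) and *Chac1* at -0.21 (standard error 0.06, edgeR's adjusted p = 0.0249), both under a fold change of 1.5 and so not called. Over all alternatives the adjusted p ran from 0.00479 to 1 for *Ddit3* and from 0.0249 to 1 for *Chac1* (edgeR, DESeq2 and limma). *Ddit3* and *Chac1* were 2 of the 10 genes, where 3.41% of the genes tested in this fit had an adjusted p under 0.05. With the replicate number as a block in the same 4 libraries, *Ddit3* had an adjusted p of 0.00744 and *Chac1* of 0.0511 in edgeR. Estimates for the other 8 genes were from -0.49 (*Atf3*) to -0.01 (*Sesn2*). In the blocked edgeR fit without both replicate 1 libraries, *Ddit3* was called (log2 fold change -0.81, adjusted p = 0.0108). It was 1 of 43 genes called there among 12668 tested. In the blocked fits without replicate 2 or replicate 3 *Ddit3* was not called.

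**Figure D2:**
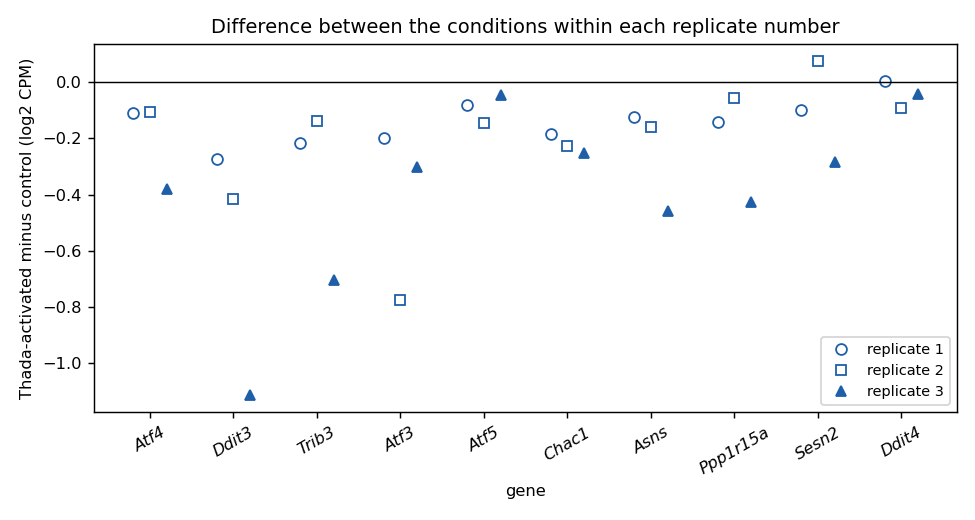
Difference in log2 CPM between the *Thada*-activated and the control library of the same replicate number for each of the 10 genes, with symbols for the replicate number. Points below 0 are lower in *Thada*-activated cells, and *Ddit3* in replicate 3 is the lowest at -1.12.

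Replicate 3 divided the arm rather than moving it as a whole. The replicate 3 libraries of both conditions were above the other 4 for *Ddit3*, *Ppp1r15a* and *Ddit4*, which are 3 of 10 genes where the share of all tested genes was 35.9%. They were below the other 4 for *Atf4*, *Atf5*, *Chac1* and *Sesn2*, which are 4 of 10 where the share of all tested genes was again 35.9%. With a difference over 1.5-fold in both conditions as the measure, *Ddit3* alone was higher (1 of 10, against 12.5% of tested genes) and *Atf5* and *Chac1* were lower (2 of 10, against 12.0%). The shares are near those of all genes, so that moving with replicate 3 does not set the 10 genes apart. For *Trib3* control replicate 3 was the highest and *Thada*-activated replicate 3 the lowest of the 6 libraries. For *Asns* control replicate 3 was the highest and *Thada*-activated replicate 3 lay among the others, and for *Atf3* both lay among the others.

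*Ddit3* had the largest of these differences among the 10 genes in both conditions, 2.32 in control and 1.55 in *Thada*-activated cells on the log2 scale, followed in size by *Atf5* (-1.31 and -1.24). It ranked 49th highest in control and 247th highest in *Thada*-activated cells among the 12516 tested genes, and 44 genes were above it in both conditions. None of the 117 other tested genes of the lists used here was above it in both. At the lower end *Atf5* ranked 489th lowest in control and 316th lowest in *Thada*-activated cells.

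**Figure D3:**
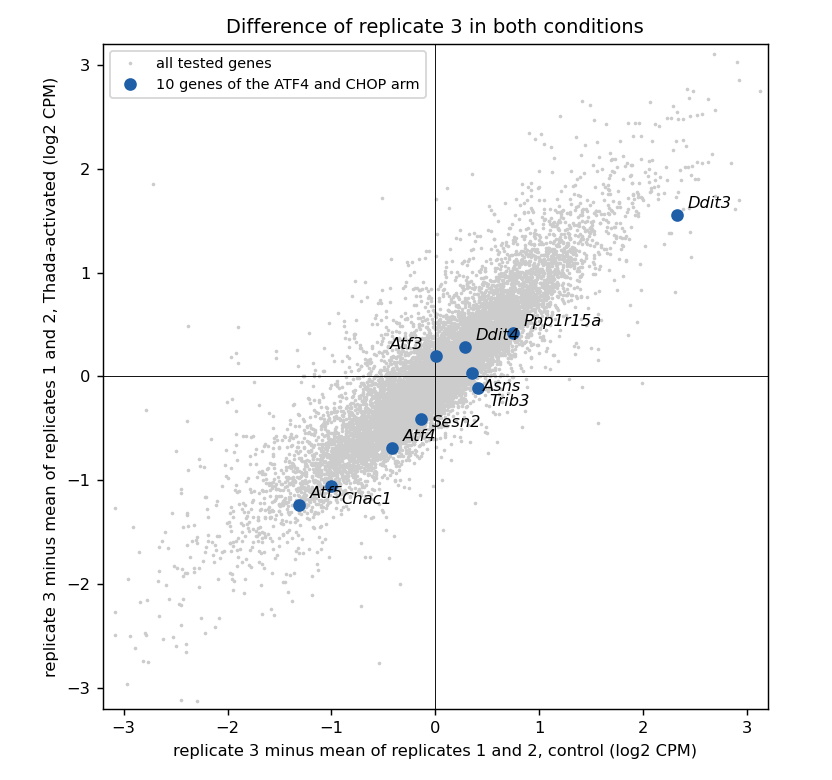
Difference in log2 CPM of replicate 3 from the mean of replicates 1 and 2, in control cells on the horizontal and in *Thada*-activated cells on the vertical axis, with grey points for all tested genes (38 lie outside the axes) and blue points for the 10 genes. *Ddit3* lies at 2.32 and 1.55, and *Atf5* and *Chac1* lie at the opposite end.

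Set against its own regulator, *Ddit3* parted from *Atf4* in replicate 3. The count of *Ddit3* per library was 8.89%, 9.10% and 60.3% of that of *Atf4* in control replicates 1, 2 and 3 and 7.93%, 7.32% and 36.2% in *Thada*-activated replicates 1, 2 and 3. The ratio lay between 7.32% and 9.10% in the 4 libraries of replicates 1 and 2. It was several times higher in both replicate 3 libraries, by 2.75 in control and 2.25 in *Thada*-activated cells on the log2 scale. Against each of the 9 other genes the ratio of *Ddit3* was higher in replicate 3 of both conditions. That count restates that *Ddit3* had the highest difference of all members there, and is no separate result. The smallest difference was against *Ppp1r15a* (1.58 and 1.14) and the largest against *Atf5* (3.64 and 2.80). Between conditions the ratio of *Ddit3* to *Atf4* was lower in the *Thada*-activated library within each replicate number, by -0.16, -0.32 and -0.74, and so *Ddit3* differed more than *Atf4* did. In replicate 1 the ratio of *Ddit3* was lower against all 9 genes, and in replicate 2 it was lower against 8, with *Atf3* the exception. These counts likewise restate the place of *Ddit3* among the members in each replicate number.

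Between genes, levels were compared per length, as FPKM. *Asns* was the highest of the 10 in every library, at 266 to 375 FPKM, and *Atf3* the lowest, at 1.77 to 3.09 FPKM. *Atf4* (135 to 237 FPKM) and *Atf5* (55.5 to 146 FPKM) followed *Asns* in replicates 1 and 2. *Ddit3* was 5th or 6th in these 4 libraries, at 32.2 to 45.3 FPKM, but 2nd in control replicate 3 (228 FPKM) and 3rd in *Thada*-activated replicate 3 (103 FPKM). *Chac1* at 33.8 to 85.1 FPKM and *Sesn2* at 23.8 to 32.8 FPKM did not overlap, while the ranges of *Ddit4* (17.3 to 22.4 FPKM) and *Ppp1r15a* (15.5 to 27.6 FPKM) overlapped, with *Ddit4* the higher in each library but control replicate 3. *Trib3* was 9th in every library, at 9.22 to 14.8 FPKM.

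The genes whose log2 CPM followed *Ddit3* most closely over the 6 libraries, among 10715 genes with a mean of at least 5 CPM, were *Sp4*, *Smurf2*, *Rcn2*, *Ggnbp2* and *Sdcbp* (Pearson's r from 0.998 to 1.000). The measure disregards the size of a change, and *Sp4* was only between 36.1 and 43.6 CPM. Of the other members *Ppp1r15a* came 44th (r = 0.991), and *Ddit4* (0.895), *Asns* (0.792), *Trib3* (0.623) and *Atf3* (0.42) also had a positive r with *Ddit3*. *Sesn2* (-0.60), *Atf4* (-0.70), *Chac1* (-0.83) and *Atf5* (-0.91) had a negative r. *Trib3* was followed most closely by *Pum2*, *Tm9sf4*, *Pcyt1a*, *Cog6* and *Calu* (r from 0.983 to 0.990), and *Asns* came 25th (r = 0.958). The 6 points fall into the replicate 3 libraries and the other 4, which all such correlations share, and they are given as a description.

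Upstream of ATF4 stand the kinases of eIF2α, the eIF2B complex and their regulators, of which 12 of 12 listed genes were tested and 0 were called. In this and each further list of responses given here, 0 genes had an unadjusted p under 0.05 in edgeR with all 6 libraries and no block, and 0 were called with the block or without the replicate 3 libraries. Counts below are to be read beside the shares of all tested genes given above, 51.3% with an estimate below 0, 16.7% lower in all 3 replicate numbers, and 35.9% above and 35.9% below the other 4 libraries in replicate 3. For p-values these shares are 10.4% with an unadjusted p under 0.05 in the blocked fit and 3.41% with an adjusted p under 0.05 without replicate 3, and of the 12 genes here they were reached by 1 and 1. The median log2 fold change of these 12 genes was -0.02, with 9 below 0, and 3 were lower in all 3 replicate numbers. *Dnajc3*, a chaperone that also inhibits kinases of eIF2α, had the largest difference (-0.22, standard error 0.35, adjusted p = 1 in edgeR), although it was 0.033 without *Thada*-activated replicate 3. Without both replicate 3 libraries *Dnajc3* was at -0.195, with an adjusted p of 0.00978 in edgeR and of 0.0386 with the block there. Next came *Eif2ak4*, the kinase GCN2 that responds to amino acid shortage (-0.17, standard error 0.10, adjusted p = 1 in edgeR). In replicate 3, 8 were below and 2 above the other 4 libraries, with *Dnajc3* at -0.84 in control and -0.96 in *Thada*-activated cells and *Eif2b5* at -0.61 and -0.44.

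Among 8 tested bZIP partners, which can pair with ATF4 or CHOP, 0 were called between conditions, 5 were below 0, and the median was -0.02. *Jund* was at 0.29 (standard error 0.18) and *Cebpg*, a partner of ATF4, at -0.23 (standard error 0.24, adjusted p = 1 for both in edgeR). Of the 8, 3 had an unadjusted p under 0.05 in the blocked edgeR fit and 2 an adjusted p under 0.05 without replicate 3. *Jund* was 1 of these 2, at 0.41 on the log2 scale, with an adjusted p from 6.79e-07 in that edgeR fit to 1 over all alternatives. *Cebpg* was 0.043 without control replicate 3 and -0.086 without both replicate 3 libraries. In replicate 3, 5 of the 8 were above the other 4 libraries and 1 was below, where both shares are 35.9% over all tested genes. *Nfe2l1* was higher by 0.89 and 0.52, *Junb* by 0.82 and 0.88 and *Cebpg* by 0.71 and 0.36 in control and *Thada*-activated cells on the log2 scale. Each of these differences was smaller than that of *Ddit3*.

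The amino acid genes known as ATF4 targets were mostly lower in the *Thada*-activated library of the same replicate number, by small differences. All 29 listed genes were tested, 27 had an estimate below 0 (51.3% of all tested genes had) and 17 were lower in the *Thada*-activated library of all 3 replicate numbers (16.7% of all tested genes were), while 0 were higher all 3 times. Of the 29, 12 had an unadjusted p under 0.05 in the blocked edgeR fit and 1 an adjusted p under 0.05 without replicate 3. The median log2 fold change was -0.17 and 0 were called. *Cth*, of cysteine synthesis, was at -0.35 (standard error 0.23) and *Phgdh*, of serine synthesis, at -0.30 (standard error 0.15), with an adjusted p of 1 for both in edgeR. The estimate for *Cth* came from replicate 3, since it was -0.10 without control replicate 3 and -0.02 without both replicate 3 libraries, and that for *Phgdh* was -0.16 without *Thada*-activated replicate 3. As with the 10 genes, the median difference was larger in replicate 3 (-0.38) than in replicates 1 (-0.07) and 2 (-0.03). In replicate 3, 13 of the 29 were below the other 4 libraries and 2 were above, where each share is 35.9% over all tested genes. The largest differences were in the amino acid transporters *Slc7a11* (-1.46 in control and -1.98 in *Thada*-activated cells), *Slc7a1* (-1.18 and -1.36), *Slc7a3* (-0.61 and -1.18) and *Slc38a2* (-0.78 and -0.89).

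Of 14 counted genes listed as other targets of ATF4 and CHOP, 12 were tested and 0 were called, with 7 below 0 and a median of -0.09. *Stc2* (0.64, standard error 0.36) and *Fgf21* (0.50, standard error 0.53) had the largest estimates, both with an adjusted p of 1 in edgeR and both under 1 CPM in every library. With each library left out *Stc2* ranged from 0.43 to 0.97 and *Fgf21* from 0.18 (without control replicate 1) to 1.07 (without control replicate 3). Of the 12, 3 had an unadjusted p under 0.05 in the blocked edgeR fit, and 2 of 11 an adjusted p under 0.05 without replicate 3. In replicate 3, 6 were above and 2 below the other 4 libraries. *Bbc3*, a cell death gene also known as Puma, was higher by 1.08 and 0.63 and *Nupr1*, a stress-induced chromatin protein, by 0.79 and 0.56 in control and *Thada*-activated cells. Between conditions *Nupr1* was at -0.34 (standard error 0.28) in edgeR. It was 1 of 4 genes of this list lower in all 3 replicate numbers, while 1 was higher. Without both replicate 3 libraries *Nupr1* was at -0.235 (adjusted p = 0.00993 in edgeR), under 1.5-fold.

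The chaperone arm of the unfolded protein response, which is driven by ATF6 and XBP1, was opposite to *Ddit3* in replicate 3. Of 18 tested genes, 16 were below the other 4 libraries in both replicate 3 libraries and 1 above, with a median log2 difference of -0.74 in control and -0.96 in *Thada*-activated cells. *Hspa5*, the chaperone BiP, measured 1396, 1491 and 704.5 CPM in replicates 1 to 3 of control cells, against 1231, 1272 and 537 CPM with *Thada* activated. *Calr* (-1.17 and -1.33), *Dnajb11* (-1.25 and -1.26) and *Manf* (-1.04 and -1.18) showed differences of similar size. Between conditions 16 of the 18 estimates were below 0, 13 genes were lower within all 3 replicate numbers, the median was -0.11, and 0 were called. *Dnajb9* (-0.25, standard error 0.19) and *Pdia6* (-0.24, standard error 0.42) had the largest differences (adjusted p = 1 for both in edgeR). Of the 18, 9 had an unadjusted p under 0.05 in the blocked edgeR fit and 4 an adjusted p under 0.05 without replicate 3, all under 1.5-fold. Over all alternatives the adjusted p of *Pdia6* ran from 0.000475 to 1 and that of *Dnajb9* from 0.0436 to 1, each lowest in edgeR without replicate 3. Without *Thada*-activated replicate 3 alone *Pdia6* was at 0.045 and *Dnajb9* at -0.089.

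*Ddit3*, *Sesn2* and *Ddit4* also answer to other stresses. Of 8 tested p53 targets, 3 were below 0 with a median of 0.02, and 1 was lower and 1 higher within all 3 replicate numbers. *Phlda3* was at 0.61 (standard error 0.42) and *Bax* at 0.13 (standard error 0.17), both with an adjusted p of 1 in edgeR. Of 7 tested HIF targets, 6 were below 0 with a median of -0.28, and *Egln3* was at -0.56 (standard error 0.63) and *Adm* at -0.52 (standard error 0.47), with an adjusted p of 1 for both in edgeR. In replicate 3 the HIF targets divided, with *Egln3* (1.48 and 1.07) and *Adm* (1.28 and 0.99) higher and *Slc2a1* (-1.22 and -1.24) and *Bnip3* (-1.38 and -0.98) lower. Without control replicate 3 *Egln3* was at 0.19 and *Adm* at 0.046. Of the 7 HIF targets, 4 were lower and 1 higher in all 3 replicate numbers, and 4 had an unadjusted p under 0.05 in the blocked edgeR fit, as 0 of the p53 targets had. *Phlda3* ranged from 0.36 to 0.89 with each library left out. None of the p53 or HIF targets was called, and 0 of 8 p53 targets and 3 of 6 HIF targets had an adjusted p under 0.05 in edgeR without replicate 3. The part of these responses in the levels of *Ddit3* was not tested.

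The identifiers of the 10 genes in the table are 11911 for *Atf4*, 13198 for *Ddit3*, 228775 for *Trib3*, 11910 for *Atf3*, 107503 for *Atf5*, 69065 for *Chac1*, 27053 for *Asns*, 17872 for *Ppp1r15a*, 230784 for *Sesn2* and 74747 for *Ddit4*. In GRCm38, by GENCODE, *Ddit3* lies on the plus strand of chromosome 10 from 127290774 to 127296288 and *Ddit4* on the minus strand of the same chromosome from 59949669 to 59951834. *Atf4* is on chromosome 15 (plus strand, 80255184 to 80257541), *Chac1* on chromosome 2 (plus strand, 119351229 to 119354381) and *Trib3* on chromosome 2 (minus strand, 152337422 to 152344032). *Atf5* and *Ppp1r15a* lie on the minus strand of chromosome 7, from 44812256 to 44816658 and from 45522916 to 45526268. *Asns* (chromosome 6, 7675169 to 7693254), *Sesn2* (chromosome 4, 132492032 to 132510501) and *Atf3* (chromosome 1, 191170296 to 191218039) are on the minus strand as well. Exons of *Ddit3* share 68 bases with exons of *Mars* on the opposite strand, those of *Atf5* 82 bases with *Nup62* and 82 with *Il4i1*, and those of *Ppp1r15a* 12 bases with *Tulp2*. Whether the counting used strand is not given in the sources used here, so reads in these stretches cannot be assigned to one gene with certainty. *Mars* measured 164, 160 and 191 CPM in control and 166, 159 and 157 CPM with *Thada* activated, without the higher level of *Ddit3* in *Thada*-activated replicate 3.

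Promoters were searched because the 10 genes are known to share a regulator. RefSeq windows (GRCm38.p6) from 250 bases before to 50 after the gene start were found for all 10 genes, 11 windows in all. The C/EBP-ATF element, searched as TGATGNAAT on both strands, was in 0 of the 10 genes and in 0.965% of 32851 windows of the same table. Its shorter form TGATGNAA, chosen after the data were seen and contained in the longer one, was in 4 of the 10 (*Asns*, *Atf3*, *Chac1* and *Trib3*) and in 3.97% of all windows. The cyclic AMP element TGACGTCA was in *Ppp1r15a* alone (1.79% of all windows), and the ER stress element, CCAAT and CCACG with 9 bases between, was in 0 of the 10 (0.119% of all windows). Counted from the RefSeq start, the match begins 193 bases before it in *Chac1*, 110 bases in *Atf3* and 23 bases in *Asns*. In *Trib3* it lies 14 bases inside the RefSeq transcript. These starts are not all those of the GENCODE coordinates given above. By the latter the matches of *Asns* and *Atf3* lie inside the gene, and that of *Trib3* lies before its start. A window without these letters says nothing of binding elsewhere. The genes with the shorter form did not move together in replicate 3, since *Chac1* was lower in both conditions and *Asns* was higher in control.

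The 250 bases before the RefSeq start are shown for *Ddit3*, with the largest difference of the 10 in replicate 3, and for 3 genes with a match. They run 5′ to 3′ on the strand of each gene, with matches to the shorter C/EBP-ATF form or to the cyclic AMP element in capitals. The stretches are chr10:127290543-127290792 (plus strand), chr2:119350992-119351241 (plus strand), chr6:7693210-7693459 (minus strand) and chr7:45526269-45526518 (minus strand) in GRCm38.p6. By the GENCODE coordinates given above, the last bases of those of *Ddit3*, *Chac1* and *Asns* lie inside the gene.
Ddit3: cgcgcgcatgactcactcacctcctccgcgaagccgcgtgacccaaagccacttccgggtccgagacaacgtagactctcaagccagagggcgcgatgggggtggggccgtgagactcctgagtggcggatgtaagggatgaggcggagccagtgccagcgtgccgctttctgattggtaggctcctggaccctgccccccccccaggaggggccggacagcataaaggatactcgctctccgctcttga
Chac1: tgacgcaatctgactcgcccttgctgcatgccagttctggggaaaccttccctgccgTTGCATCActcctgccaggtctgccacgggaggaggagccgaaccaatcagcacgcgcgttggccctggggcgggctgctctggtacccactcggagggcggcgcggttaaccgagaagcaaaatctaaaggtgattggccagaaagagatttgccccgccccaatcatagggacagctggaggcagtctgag
Asns: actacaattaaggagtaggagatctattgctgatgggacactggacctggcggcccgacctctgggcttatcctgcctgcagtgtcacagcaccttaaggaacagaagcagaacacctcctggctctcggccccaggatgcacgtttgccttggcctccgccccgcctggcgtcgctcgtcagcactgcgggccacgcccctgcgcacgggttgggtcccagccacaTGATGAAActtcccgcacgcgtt
Ppp1r15a: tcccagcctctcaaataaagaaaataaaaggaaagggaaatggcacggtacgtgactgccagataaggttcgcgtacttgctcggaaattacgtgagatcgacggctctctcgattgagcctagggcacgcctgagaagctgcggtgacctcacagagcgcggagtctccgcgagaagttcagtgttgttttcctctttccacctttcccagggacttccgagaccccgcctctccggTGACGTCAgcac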

How the data were processed

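The 6 MIN6 libraries (3 per condition) were sequenced on a BGISEQ-500, by the platform label and the paper's methods. The protocol text of the samples names Illumina instead. What the authors deposited was, per gene and library, the estimated count without normalization and FPKM, which is scaled by gene length and library size. The submitters' processing notes name Bowtie2, RSEM, DESeq2 and GRCm38, without their versions. Columns of the authors' DESeq2 comparison (fold changes, p-values and q-values) were not used. Groups and replicate numbers came from the sample labels.

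One table line was broken inside a text cell, and its tail, without a gene, was dropped. Estimated counts were rounded to whole numbers. Genes that passed filterByExpr were scaled by TMM, and edgeR 4.0.16 in R 4.3.3 fitted condition as the single term with its quasi-likelihood test (robust setting), adjusted by Benjamini-Hochberg over all genes tested. A gene was called when its adjusted p was below 0.05 and its change exceeded 1.5-fold. Differences within replicate numbers and of replicate 3 were taken on log2 CPM with a prior count of 2, and carry no test. One count equals 0.0564 to 0.0583 CPM, and 3 counts or fewer were taken as the floor. The fits were also run on simulated data with known changes, and no result given here rests on that run. Among libraries of a condition, the chi-square of counts per degree of freedom was lowest for *Thada*-activated replicates 1 and 2 (1.81), where sampling of reads alone gives about 1, and 4.30 for control replicates 1 and 2, and none were copies.

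Replicate numbers are shared by the labels of both conditions, and their pairing was judged from the counts. Deviations of same-numbered libraries from their condition's mean correlated across genes at 0.667 for replicate 1, 0.671 for replicate 2 and 0.869 for replicate 3. When replicate 1 of a condition was set against replicate 2 of the other, 0.705 and 0.726 were found, so the numbers distinguish replicate 3 but not replicate 1 from replicate 2.

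The members and lists were chosen with earlier results of these data known. Lists covered kinases of eIF2α with eIF2B, bZIP partners, amino acid targets, other ATF4 and CHOP targets, ATF6 and XBP1 targets, p53 targets, HIF targets and cell type markers. Of each list up to 4 genes with the largest difference between conditions and up to 4 with the largest difference of replicate 3 could be named, besides the members, *Thada*, the 5 genes most correlated with *Ddit3* and with *Trib3*, and any list gene called with all 6 libraries, with or without the block, of which there were 0.

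Alternatives were DESeq2 1.42.0 size factors and Wald test, a minimum of 10 counts throughout or no filter, the replicate number as a block, the fit without each library in turn, limma 3.58.1 on log2(FPKM + 1) and log2(FPKM + 0.1), and library sizes without the 20 top genes. Added after the data were seen were both libraries of a replicate number left out, the blocked DESeq2 test, ratios of FPKM, replicate 3 against a single other replicate, and the shorter motif. Sequences and motif windows came from RefSeq (GRCm38.p6), and coordinates from GENCODE M21. *Pmaip1*, *Cpa1*, *Cela1*, *Prss2*, *Ptf1a*, *Cftr*, *Pdgfrb* and *Ptprc* were not listed in the table. Python 3.11.15 with pandas 2.3.3, numpy 2.4.6, scipy 1.17.1 and matplotlib 3.10.9 was used for descriptions and figures.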

Additional observations from a re-analysis of the deposited data

How the results depend on the processing

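The number of genes called, 0 in edgeR without a block, was 19 with the replicate block, 5 with the DESeq2 Wald test and 17 with the blocked DESeq2 test. It was 68 without both replicate 3 libraries, and with the block 70, 43 and 18 without both libraries of replicate 3, 1 and 2. It was 0 in the other 12 alternatives, the fits with each library left out included. Members called numbered 0 to 0 with each library left out and 1, *Ddit3* (-0.81), in the blocked fit without replicate 1. Members with an estimate below 0 numbered 6 to 10 with each library left out and 10 in all other alternatives. The block changed no other call given here than that of *Thada*, whose log2 fold change was 1.15 with the block, 1.13 with the DESeq2 Wald test, 1.16 with the blocked DESeq2 test, 0.99 without both replicate 3 libraries with or without the block, and 1.22 and 1.26 in the blocked fits without replicates 1 and 2. It passed the thresholds in these fits, and ranged from 0.93 to 1.26 with each library left out. Of 190 member estimates under the 19 alternatives, 10 changed sign, each with 1 library left out. The ranges with each library left out were -0.304 to 0.019 for *Atf4*, -1.572 to 0.373 for *Ddit3*, -0.421 to 0.207 for *Atf5*, -0.48 to 0.059 for *Chac1*, -0.392 to 0.054 for *Ppp1r15a*, -0.196 to 0.036 for *Sesn2* and -0.146 to 0.056 for *Ddit4*. *Trib3* (-0.435 to -0.214), *Atf3* (-0.494 to -0.314) and *Asns* (-0.332 to -0.13 with each library left out) were below 0 in all 19. *Egln3* and *Fgf21* were not tested in 3 alternatives and *Stc2* in 1, where they did not pass the filter. Of 259 estimates for 14 other named genes 5 changed sign, where the ranges with each library left out were -0.452 to 0.033 for *Dnajc3*, -0.364 to 0.043 for *Cebpg*, -0.524 to 0.045 for *Pdia6*, -1.095 to 0.193 for *Egln3* and -0.937 to 0.046 for *Adm*. *Cth* ranged from -0.482 to -0.101, *Phgdh* from -0.386 to -0.163, *Dnajb9* from -0.342 to -0.089, *Jund* from 0.165 to 0.448, *Stc2* from 0.434 to 0.968, *Fgf21* from 0.175 to 1.073, *Phlda3* from 0.356 to 0.894, *Bax* from 0.03 to 0.267 and *Eif2ak4* from -0.213 to -0.131. The cause of these changes was not tested. The difference of *Ddit3* in replicate 3 ranged from 2.3 to 2.361 in control and from 1.503 to 1.604 in *Thada*-activated cells over all alternatives, and the counts of members above (3) and below (4) were the same under each scaling. Members lower in all 3 replicate numbers were 7 without TMM and 8 with each other scaling. The shorter C/EBP-ATF form was in 4 members. The fits without both libraries of a replicate number, the blocked DESeq2 test and the shorter form were chosen after the data were seen.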
